A study of Homo sapiens with 30 samples.

Results

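Active histone marks were examined at 35 autosomal genes that work in meiosis or in germ cells and that somatic cells normally keep silent. The genes were taken from a list of names and not from their measured values, and a peak belonged to a gene when it overlapped the gene or lay within 2 kb of it. Of these genes, 16 had a peak of H3K4me3 or H3K27ac and 19 had none. Together they held 20 of 21268 H3K4me3 peaks and 43 of 63580 H3K27ac peaks. The cells were OCI-Ly1, an established human line of diffuse large B-cell lymphoma, given either the vehicle (0.01% DMSO) or JIB-04, a compound that blocks histone demethylases of the Jumonji family, in doses of 150 nM and 500 nM. Chromatin immunoprecipitation followed by sequencing (ChIP-seq) gave 2 libraries per mark and treatment. The labels give neither the duration of treatment nor whether the 2 libraries of a group came from separate cultures, so p-values measure only the spread between these libraries, which may be technical. The libraries of input chromatin, H3K9me2 and H3K9me3, and RNA and DNA methylation, were not analysed here, so whether a gene was transcribed was not measured. A study of heterochromatin fidelity in lymphoma frames the comparison, which asks whether these marks moved at germline genes when demethylases were inhibited.

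Germline genes are normally expressed in the testis and ovary, where their products pair homologous chromosomes, make and repair the meiotic DNA breaks, and keep transposons down through PIWI-interacting RNAs (piRNAs). In somatic cells many of them are kept off by DNA methylation of CpG-rich promoters and by a noncanonical Polycomb complex that holds E2F6, MGA and MAX and binds E2F and E-box motifs, with histone H3K9 methylation as a further layer. H3K4me3 marks the starts of active or poised genes and is poorly compatible with DNA methylation. H3K27ac marks active promoters and enhancers.

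H3K4me3 peaks lay at or near 15 of the 35 genes (42.9%), against 13107 of 19122 autosomal protein-coding genes (68.5%). H3K27ac peaks lay at or near 12 of the 35 (34.3%), against 64.1% of the same genes. Both marks were present at 11 members, H3K4me3 alone at HORMAD2, STK31, TEX15 and RNF212, and H3K27ac alone at SPO11. The 19 members with no peak were DAZL, DDX4, SYCP1, SYCP2, SYCP3, SYCE1, TDRD5, TDRD9, PIWIL1, PIWIL2, PIWIL4, ASZ1, BRDT, MEIOB, REC8, PRDM9, BOLL, TEX101 and SOHLH2. They include SYCP1, SYCP2 and SYCP3, structural proteins of the synaptonemal complex, which holds paired chromosomes together. Also among them are the germ cell RNA helicase DDX4, all 3 listed PIWI proteins and the RNA-binding proteins DAZL and BOLL. At the transcript start itself the contrast was wider. Of the 30 members with a start in the RefSeq promoter table, 7 (23.3%) had an H3K4me3 peak within 1 kb of it, against 64.8% of 15100 protein-coding genes, and 8 (26.7%) had an H3K27ac peak, against 58.7%. These shares describe the authors' consensus peak set, so a gene without a peak can still carry marks below the level at which peaks were called.

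Most member promoters without H3K4me3 were rich in CpG dinucleotides compared with other unmarked promoters, though the only DDX4 window held 1 CpG and the upstream TEX101 start 3. That DDX4 window lies at a transcript start inside the gene (position 55766885). The annotated beginning of DDX4 (position 55738061) had no window, so its CpG content was not examined. RefSeq promoter windows of GRCh38.p14, which run from 250 bases before to 50 bases after a transcript start, were matched for 30 of 35 members and gave 40 windows. The 31 member windows with no H3K4me3 peak within 1 kb held a median of 27 CpG, and the 9 with a peak held a median of 29. Over all 35116 windows of the table the medians were 4 without a peak and 26 with a peak. Those windows belong to 27305 genes and include noncoding genes, whereas all members are protein-coding. A comparison with protein-coding genes alone was not made. Of the 31 unmarked member windows, 18 held at least 26 CpG, against 10.1% of all unmarked windows. The plot of CpG counts shows the members' windows in both classes.

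**Figure D1:**
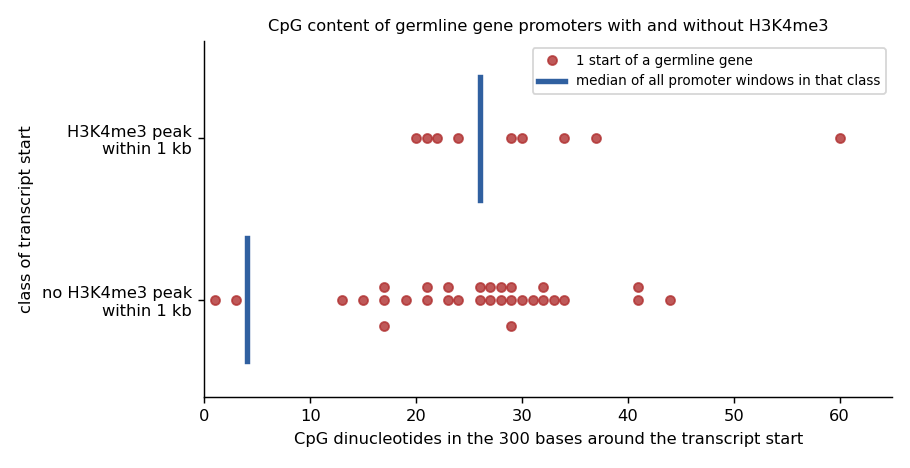
CpG dinucleotides (x axis, number in 300 bases) in each promoter window of a germline gene (red points), for windows with and without an H3K4me3 peak within 1 kb of the transcript start (y axis). Blue bars are the medians of all promoter windows in each class, noncoding genes included, 26 with and 4 without a peak. Most unmarked germline windows lie far to the right of their bar.

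Letters of 3 motifs were searched in these windows, the E-box and E2F motifs of the silencing complex and the cAMP response element (CRE). The E-box CACGTG was found in 30% of member windows and 7.26% of all windows, the E2F motif TCCCGC in 62.5% and 26.9%, and the CRE motif TGACGTCA, which was rare in both, in 2.5% and 1.85%, counting both strands. At least 1 of the 3 motifs was present in 77.5% of member windows and 32.7% of all windows, and in no member window did matches of different motifs overlap. Over all windows of the table, the E2F motif was present in 41.6% of those with an H3K4me3 peak and in 13.7% of those without. A match of letters is not a bound site, and the windows of the table again include those of noncoding genes.

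At least 1 motif was found in 5 of the 9 marked and 26 of the 31 unmarked member windows, whereas every window printed below holds a motif. The printed windows are examples of the unmarked and the marked kind of germline promoter. They run 5′ to 3′ on the gene's strand, with matches to the 3 motifs in capitals. The unmarked ones are the MAEL start at chr1:166989030-166989329 (plus strand), the downstream DAZL start at chr3:16604741-16605040 (minus strand), STK31 at chr7:23709969-23710268 (plus strand), HORMAD2 at chr22:30080214-30080513 (plus strand) and MOV10L1 at chr22:50089756-50090055 (plus strand).
MAEL, downstream start: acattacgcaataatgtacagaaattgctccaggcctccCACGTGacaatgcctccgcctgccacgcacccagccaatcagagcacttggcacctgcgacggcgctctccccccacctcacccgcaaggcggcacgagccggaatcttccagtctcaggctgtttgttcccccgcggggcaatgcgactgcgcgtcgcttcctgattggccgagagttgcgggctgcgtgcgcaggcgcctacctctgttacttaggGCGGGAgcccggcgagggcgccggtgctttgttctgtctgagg
DAZL, downstream start: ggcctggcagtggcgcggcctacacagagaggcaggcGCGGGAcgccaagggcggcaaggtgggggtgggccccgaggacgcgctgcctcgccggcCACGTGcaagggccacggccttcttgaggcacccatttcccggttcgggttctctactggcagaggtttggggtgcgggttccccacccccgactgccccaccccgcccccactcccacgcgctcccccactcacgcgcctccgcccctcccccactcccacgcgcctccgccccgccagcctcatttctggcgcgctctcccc
STK31: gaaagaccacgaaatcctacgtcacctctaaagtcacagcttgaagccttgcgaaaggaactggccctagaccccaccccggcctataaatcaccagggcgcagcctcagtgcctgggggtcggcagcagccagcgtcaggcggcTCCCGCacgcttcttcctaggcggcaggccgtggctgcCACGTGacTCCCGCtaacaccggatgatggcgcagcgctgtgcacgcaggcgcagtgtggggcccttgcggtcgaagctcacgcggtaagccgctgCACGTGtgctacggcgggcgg
HORMAD2: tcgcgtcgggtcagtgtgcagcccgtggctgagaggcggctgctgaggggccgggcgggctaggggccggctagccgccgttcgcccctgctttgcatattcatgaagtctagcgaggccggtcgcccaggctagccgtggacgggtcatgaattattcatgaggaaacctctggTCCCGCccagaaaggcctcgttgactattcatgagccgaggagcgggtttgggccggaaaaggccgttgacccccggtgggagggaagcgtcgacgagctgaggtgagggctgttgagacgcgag
MOV10L1: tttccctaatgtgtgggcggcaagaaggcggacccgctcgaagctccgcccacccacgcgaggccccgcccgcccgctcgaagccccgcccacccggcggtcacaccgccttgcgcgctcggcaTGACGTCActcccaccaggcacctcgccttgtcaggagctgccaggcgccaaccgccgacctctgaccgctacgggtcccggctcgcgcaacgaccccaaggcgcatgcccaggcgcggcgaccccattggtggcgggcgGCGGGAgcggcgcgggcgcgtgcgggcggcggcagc
The marked ones are the upstream MAEL start at chr1:166975332-166975631 (plus strand), SYCE2 at chr19:12919244-12919543 (minus strand) and SMC1B at chr22:45413550-45413849 (minus strand).
MAEL, upstream start: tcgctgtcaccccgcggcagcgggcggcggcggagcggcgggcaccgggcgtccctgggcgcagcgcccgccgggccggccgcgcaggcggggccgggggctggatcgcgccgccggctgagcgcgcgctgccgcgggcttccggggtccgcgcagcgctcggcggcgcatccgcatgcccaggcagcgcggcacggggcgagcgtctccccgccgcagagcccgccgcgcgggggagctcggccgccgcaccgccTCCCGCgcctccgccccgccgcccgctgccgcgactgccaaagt
SYCE2: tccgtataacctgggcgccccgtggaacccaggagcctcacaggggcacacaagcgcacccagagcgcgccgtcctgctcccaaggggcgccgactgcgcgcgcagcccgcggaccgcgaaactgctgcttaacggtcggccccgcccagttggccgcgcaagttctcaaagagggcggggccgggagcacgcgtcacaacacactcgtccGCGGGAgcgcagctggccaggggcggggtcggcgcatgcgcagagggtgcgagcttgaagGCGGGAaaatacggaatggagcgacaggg
SMC1B: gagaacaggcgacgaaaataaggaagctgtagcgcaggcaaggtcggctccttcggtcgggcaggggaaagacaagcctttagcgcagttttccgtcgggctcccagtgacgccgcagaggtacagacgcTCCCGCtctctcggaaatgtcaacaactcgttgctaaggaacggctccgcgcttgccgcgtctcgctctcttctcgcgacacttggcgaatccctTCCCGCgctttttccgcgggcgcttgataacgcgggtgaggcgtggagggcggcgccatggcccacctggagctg
MAEL thus has an unmarked window with an E-box and an E2F motif and 27 CpG, and a marked window with 60 CpG that lies beside the start of its neighbour ILDR2. The STK31 window holds 28 CpG and the HORMAD2 window 28, and neither has a peak within 1 kb although both genes have an H3K4me3 peak elsewhere.

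At 500 nM JIB-04, H3K4me3 was higher than in DMSO at 8 of the 20 member peaks and lower at 3 (edgeR's quasi-likelihood test, Benjamini-Hochberg adjusted p under 0.05 over all 20402 tested peaks). Over all tested peaks 39.4% passed the same threshold, 20.7% higher and 18.7% lower, so 11 called members of 20 (55%) stand against a background in which changes were common. The median log2 fold change of the 20 member peaks was 0.020 and that of all tested peaks -0.0063. The rises were led by TEX15, HORMAD2 and STK31, whose peaks were among the faintest in DMSO, followed by SYCE2, SYCE3, MAEL, SMC1B and TDRKH. The falls were at strong peaks at the far ends of STAG3, MEI1 and DMC1, each of which is also the start of a neighbouring gene. All 20 member peaks passed the filter on low counts, but those of TEX15 and HORMAD2 passed it only through the 500 nM libraries (2 libraries above 0.906 CPM, that is counts per 1000000 reads in tested peaks, were needed), so such peaks could enter the test only if they were high there.

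**Figure D2:**
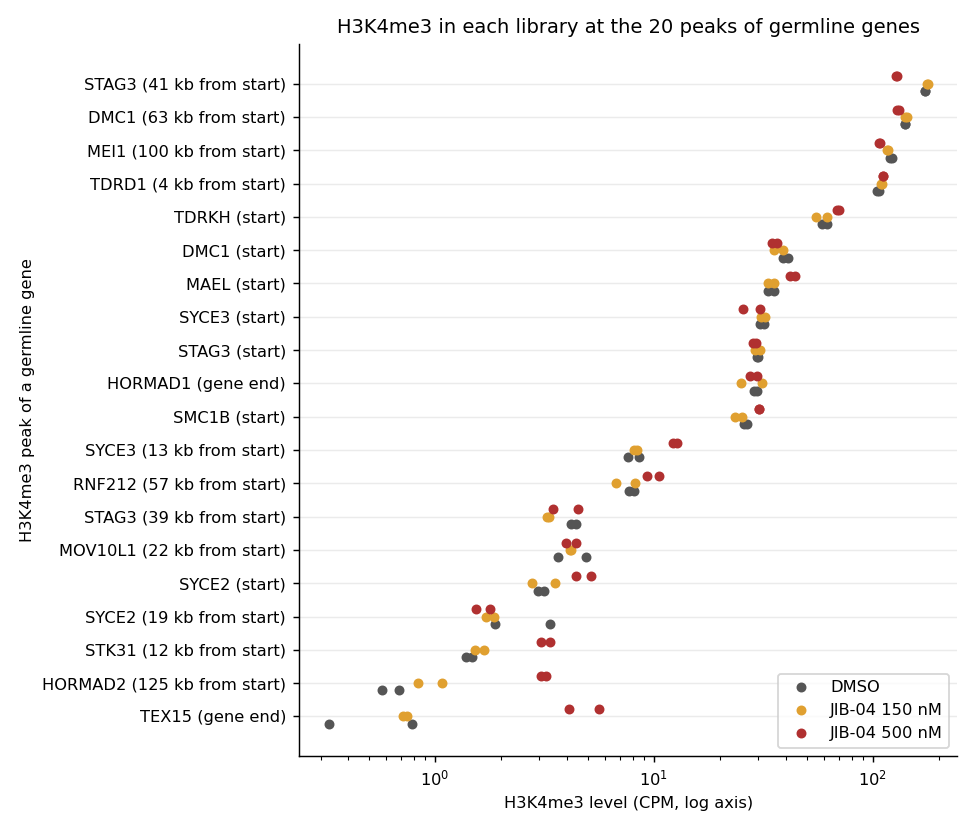
H3K4me3 level in each library (x axis, CPM, log axis) at the 20 peaks of germline genes (y axis, with the distance from the gene's start, or "gene end" where no start was known). Each point is 1 library. At the lowest rows the red 500 nM points lie to the right of all others, and at the highest row they lie to the left, at 128 and 129 CPM.

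Among the 8 genes of the synaptonemal complex and chromosome axis, 4 had an H3K4me3 peak, with 6 peaks in all, of which 3 rose and 0 fell. Counts per role rest on 2 to 6 peaks, against shares of 20.7% higher and 18.7% lower over all tested peaks, and no difference between roles was tested. HORMAD2, which binds unsynapsed chromosome axes, had a peak at chr22:30205559-30206014, inside the gene and 1442 bp from its far end, 125 kb from the start. Its level was 0.572 and 0.688 CPM in DMSO, 1.08 and 0.838 CPM at 150 nM, and 3.23 and 3.06 CPM at 500 nM. Both 500 nM libraries lay above all 4 others, and the log2 fold change against DMSO was 2.32 ± 0.38 (SE, n = 2 libraries per group, adjusted p = 1.27e-06). The counts behind it were small, 7 and 7 reads in DMSO and 38 and 30 at 500 nM. The HORMAD2 peak entered the test only through its 500 nM libraries, so their place above the others was partly set by the filter.

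SYCE2, a central element protein of the synaptonemal complex, rose at its own start, as no other synaptonemal complex member did in this test. The promoter table holds no start of another gene within 1 kb of that peak. An end of the microRNA gene MIR5695 lies there, and whether that end is its start was not examined. At chr19:12918922-12919627 it had 2.94 and 3.14 CPM in DMSO, 2.78 and 3.54 CPM at 150 nM, and 5.19 and 4.39 CPM at 500 nM. The 500 nM libraries did not overlap the others, and the log2 fold change was 0.67 ± 0.24 (SE, n = 2, adjusted p = 0.0196). This call was lost without the first DMSO library (0.61) or without the first 500 nM library (0.53). A second SYCE2 peak, 18.6 kb inside the gene, had a log2 fold change of -0.61 that did not pass the test (adjusted p = 0.137).

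SYCE3, another central element protein, had a peak that rose at chr22:50548243-50549523, 13.4 kb from its start and at the start of the noncoding gene KLHDC7B-DT. Its level was 7.59 and 8.55 CPM in DMSO, 8.33 and 8.10 CPM at 150 nM, and 12.8 and 12.3 CPM at 500 nM, a log2 fold change of 0.64 ± 0.14 (SE, n = 2, adjusted p = 0.000244). At its own start the level was 30.5 and 31.9 CPM in DMSO and 30.7 and 25.5 CPM at 500 nM, which overlapped (adjusted p = 0.172). HORMAD1, the partner of HORMAD2 on the axis, had a peak at its lower-coordinate end, where GOLPH3L starts, with 29.7 and 28.6 CPM in DMSO and 27.6 and 29.7 CPM at 500 nM, which also overlapped.

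The meiotic cohesin genes had peaks at SMC1B and STAG3 and none at REC8. SMC1B, the meiotic form of the SMC1 subunit, shares its start with RIBC2, and the peak there rose from 25.7 and 26.5 CPM in DMSO to 30.4 and 30.2 CPM at 500 nM, with 25.4 and 23.5 CPM at 150 nM. The log2 fold change was 0.22 ± 0.080 (SE, n = 2, adjusted p = 0.0262), and the call was lost when any of the DMSO or 500 nM libraries was left out (0.19 to 0.23). STAG3, the meiosis-specific STAG subunit, had 3 peaks. The one at its start, next to that of GPC2, stayed between 28.5 and 30.5 CPM in all 6 libraries. The one at its far end, chr7:100219046-100222991, covers the start of PVRIG, which codes for an inhibitory receptor of lymphocytes. This peak had 174 and 174 CPM in DMSO, 176 and 178 CPM at 150 nM and 128 and 129 CPM at 500 nM. It fell by 0.44 ± 0.035 on the log2 scale (SE, n = 2, adjusted p = 6.19e-16) with the 500 nM libraries below all others.

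Among the 6 genes of meiotic recombination, 3 had H3K4me3 peaks, 0 of the 4 peaks rose and 2 fell. MEI1, which is needed to form meiotic DNA breaks, had its peak just past its end, at the start of CCDC134. That peak had 120 and 122 CPM in DMSO, 118 and 116 CPM at 150 nM, and 108 and 107 CPM at 500 nM, a log2 fold change of -0.18 ± 0.040 (SE, n = 2, adjusted p = 0.00023). DMC1, the meiotic strand exchange protein, had a peak past its end at the start of DDX17 and a peak at its own start. The DDX17 peak had 141 and 141 CPM in DMSO and 130 and 132 CPM at 500 nM, a log2 fold change of -0.11 ± 0.037 (SE, n = 2, adjusted p = 0.0129), and the call was lost without the first library of either group. The peak at the DMC1 start had 38.8 and 40.9 CPM in DMSO and 34.6 and 36.6 CPM at 500 nM, which did not pass the test (adjusted p = 0.0548). RNF212, a crossover factor, had its peak at its far end, 57 kb from the start, with 7.68 and 8.15 CPM in DMSO, 8.24 and 6.70 CPM at 150 nM and 10.5 and 9.29 CPM at 500 nM. Its difference passed the test against 150 nM (log2 fold change 0.41 ± 0.16, SE, n = 2, adjusted p = 0.0328) and not against DMSO (0.34 ± 0.16, adjusted p = 0.0801). SPO11, the enzyme that cuts DNA in meiosis, and MEIOB and PRDM9 had no H3K4me3 peak.

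Among the 11 piRNA pathway genes, 4 had an H3K4me3 peak, 2 of these 4 peaks rose and 0 fell. MAEL, which acts in piRNA-guided silencing of transposons, rose at the upstream start it shares with ILDR2, the marked window printed above. The level was 35.5 and 33.2 CPM in DMSO, 35.3 and 33.1 CPM at 150 nM, and 42.1 and 44.2 CPM at 500 nM, a log2 fold change of 0.32 ± 0.067 (SE, n = 2, adjusted p = 9.25e-05). The DMSO and 150 nM libraries coincided, and the 500 nM libraries lay above them. TDRKH, a Tudor protein that tethers PIWI proteins to mitochondria, rose at its start, where the antisense gene TDRKH-AS1 also starts. Its level was 58.7 and 61.8 CPM in DMSO, 54.8 and 61.9 CPM at 150 nM, and 69.0 and 70.1 CPM at 500 nM, a log2 fold change of 0.21 ± 0.054 (SE, n = 2, adjusted p = 0.00134) that was lost without the first DMSO library (0.17). TDRD1, a Tudor scaffold protein, has an annotated beginning inside a peak at the CCDC186 start, and that peak had 107 and 105 CPM in DMSO and 111 and 111 CPM at 500 nM (adjusted p = 0.166). MOV10L1, the helicase that starts piRNA processing, had no peak at its start and a peak 21.9 kb inside with 4.90 and 3.63 CPM in DMSO and 4.42 and 3.98 CPM at 500 nM, which overlapped.

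The remaining germ cell genes comprised 7 members, of which STK31 and TEX15 had an H3K4me3 peak and both peaks rose. TEX15, which is needed for meiotic recombination and for silencing of transposons in male germ cells, had a peak on chromosome 8 from 30911715 to 30912593, 415 bp inside the higher-coordinate end of the gene. Its level was 0.327 and 0.786 CPM in DMSO, 0.717 and 0.745 CPM at 150 nM, and 4.08 and 5.62 CPM at 500 nM. The log2 fold change was 3.13 ± 0.37 (SE, n = 2, adjusted p = 2.48e-10). As stated above, the peak entered the test only through its 500 nM libraries. In DMSO the level per kilobase of this peak lay at the 0.26 percentile of tested peaks, with 4 and 8 reads, and at 500 nM it held 48 and 55 reads. STK31, a germ cell protein with a Tudor and a kinase domain, had its peak at chr7:23722613-23723103, 12.4 kb inside the gene near the pseudogene PCMTD1P3. The level was 1.39 and 1.47 CPM in DMSO, 1.52 and 1.68 CPM at 150 nM, and 3.06 and 3.37 CPM at 500 nM, a log2 fold change of 1.16 ± 0.31 (SE, n = 2, adjusted p = 0.00205). The 500 nM libraries lay above the 4 others with no overlap at STK31, whose peak passed the filter without them. How many of all tested peaks separate in this way was not counted. Whether the 500 nM libraries defined this consensus peak was not examined. In the faintest quintile by abundance, which holds the STK31 peak, the median log2 fold change of all tested peaks was 0.44. The separation at STK31 is therefore not taken as further evidence. At TEX15 and HORMAD2 the 500 nM libraries lay above the others as well. There the filter itself required high 500 nM libraries, so that separation is no further evidence either.

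**Figure D3:**
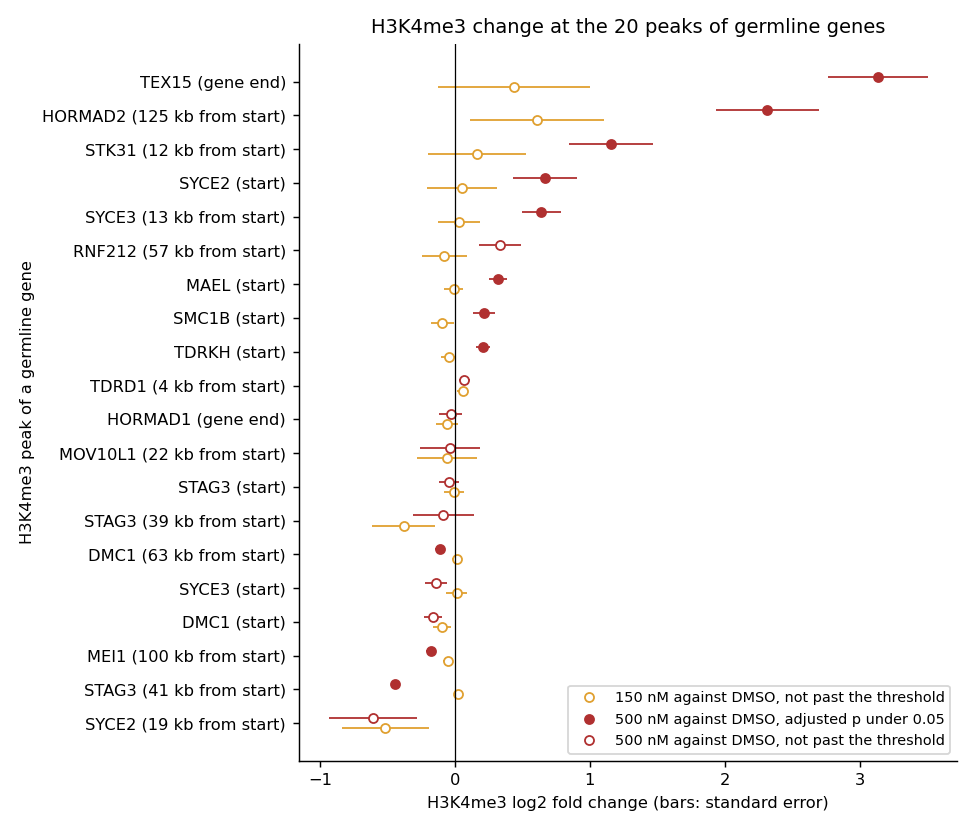
H3K4me3 log2 fold change against DMSO (x axis, bars are standard errors) at the 20 peaks of germline genes (y axis), for 500 nM in red and 150 nM in yellow, with filled points past the threshold. The red points range from -0.61 at a peak inside SYCE2 to 3.13 at TEX15, and no yellow point is filled.

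No member peak was called at the lower dose. At 150 nM, 0 of 20 member peaks passed the edgeR test against DMSO, 0 had an unadjusted p under 0.05 and 0 were called by DESeq2, as was 0% of all tested peaks by edgeR. Set directly against 150 nM, the 500 nM libraries differed at 12 of 20 member peaks, 9 higher and 3 lower, where 39.2% of all tested peaks were called, 20.5% higher and 18.6% lower. The 2 comparisons share the 500 nM libraries and are not independent. The log2 fold change of TEX15 against 150 nM was 2.70 ± 0.35 (SE, n = 2, adjusted p = 3.25e-09) and that of HORMAD2 was 1.71 ± 0.35 (adjusted p = 6.35e-05). Both peaks, which are among the 9 higher, entered the test only through their 500 nM libraries, so their calls are no independent support. That of STAG3 at the PVRIG start was -0.47 ± 0.036 (adjusted p = 7.14e-17).

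The direction of change followed the abundance of the peak across the whole table. When all tested peaks were ranked by abundance and cut into quintiles, the median log2 fold change (500 nM against DMSO) was 0.44 in the faintest quintile (median 15.8 reads) and 0.20 in the next. It was 0.016 in the middle quintile and -0.045 and -0.059 in the 2 most abundant. TEX15, HORMAD2 and STK31 were all in the faintest quintile, and STAG3 at PVRIG, MEI1 and the DDX17 peak of DMC1 were in the most abundant. The part of this trend in the members' changes was not tested further than by scaling each library along abundance. With that scaling the log2 fold change was 2.73 for TEX15 and 1.84 for HORMAD2, peaks that were tested only because they were high at 500 nM. It was 0.76 for STK31 (adjusted p = 0.0518) and 0.38 for SYCE2 (adjusted p = 0.212).

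**Figure D4:**
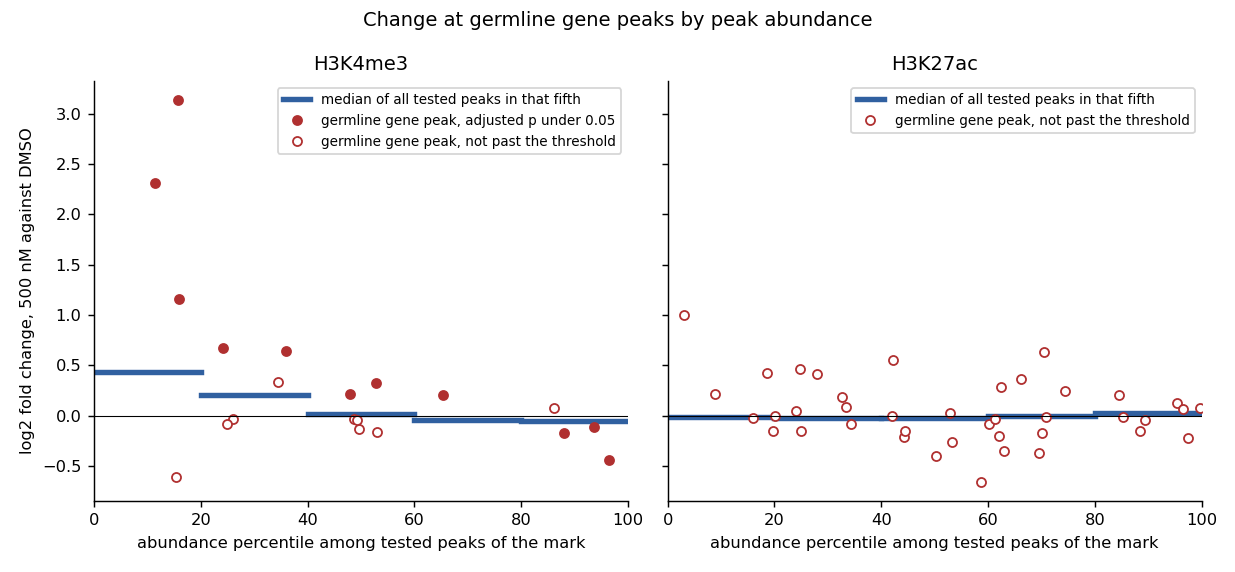
Log2 fold change at 500 nM against DMSO (y axis) at each tested peak of a germline gene (red points, filled where past the threshold) against the peak's abundance percentile among tested peaks (x axis), for H3K4me3 on the left and H3K27ac on the right. Blue bars are the medians of all tested peaks in each quintile, which go from 0.44 down to -0.059 for H3K4me3, and no H3K27ac point is filled.

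H3K27ac at the germline genes did not pass the test in any comparison. Of 40 tested member peaks edgeR called 0 at 500 nM against DMSO, 0 at 500 nM against 150 nM and 0 at 150 nM against DMSO, with 3, 4 and 1 at an unadjusted p under 0.05 and 0 by DESeq2 in each. Few H3K27ac peaks were called anywhere, at 0.923%, 1.27% and 0.00185% of 54037 tested peaks (499, 687 and 1). These totals rested on single libraries, at 1900, 2110 and 508 without the first 150 nM library. The member peaks had a median log2 fold change of -0.0070 in the first of these comparisons and all tested peaks one of -0.0040. H3K27ac peaks were shallow. In simulated data with changed peaks drawn at random from all tested peaks, a change of 1 on the log2 scale was recovered for 41.1% of changed H3K27ac peaks against 79.9% of H3K4me3 peaks. In that simulation, with 190 changed H3K27ac peaks among 51888, a change of that size was thus more often missed than found. Other shares of changed peaks, on which recovery also depends, were not simulated. Recovery at the member peaks, some of which are abundant, was not simulated.

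The strongest H3K27ac lay at shared peaks already described for H3K4me3, at SPO11 and at peaks of SYCE2 and MOV10L1 away from their starts. At the far end of SYCE2 (chr19:12897804-12901540) it was 66.2 and 77.2 CPM in DMSO and 79.7 and 76.7 CPM at 500 nM. Inside SYCE2 (chr19:12912959-12914610) it was 38.6 and 44.7 CPM in DMSO and 43.0 and 37.9 CPM at 500 nM. At both SYCE2 peaks the groups overlapped. The STAG3 and PVRIG peak had 235 and 244 CPM in DMSO, 224 and 269 CPM at 150 nM, and 261 and 245 CPM at 500 nM, which overlapped, whereas H3K4me3 at the same place fell. SPO11 had H3K27ac without H3K4me3. Its main peak, chr20:57323937-57328810, ends 993 bp before the SPO11 start and had 117 and 116 CPM in DMSO, 115 and 105 CPM at 150 nM, and 98.9 and 99.7 CPM at 500 nM. The 500 nM libraries lay below the others, but the log2 fold change of -0.23 ± 0.099 (SE, n = 2) did not pass the test (adjusted p = 0.350). A smaller peak over the SPO11 start itself had 16.8 and 17.0 CPM in DMSO and 12.4 and 13.7 CPM at 500 nM (adjusted p = 0.465). At both places the uncharacterized gene LOC105372687 also starts.

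MOV10L1 carried 12 H3K27ac peaks between 11610 and 53765 bp from its start and none at its start. The most abundant, 48068 bp from the start, had 43.2 and 40.9 CPM in DMSO, 41.2 and 35.2 CPM at 150 nM, and 36.4 and 39.1 CPM at 500 nM. SMC1B at the start shared with RIBC2 was named here after its values were seen. It had 9.43 and 14.0 CPM in DMSO, 12.5 and 15.8 CPM at 150 nM, and 18.7 and 18.2 CPM at 500 nM, so the 500 nM libraries were highest. The log2 fold change was 0.64 ± 0.20 (SE, n = 2, adjusted p = 0.136) and passed the threshold in some of the alternative fits. The second DMSO and second 150 nM H3K27ac libraries stood apart from the others in reads on 5 unplaced contigs, with 71.5 and 45.9 CPM of the reads in peaks against 322 to 446. With a term for that split the SMC1B log2 fold change was 0.88 (adjusted p = 0.00721). Both 500 nM libraries were on the same side as the first DMSO library, so the split is unbalanced over treatment. The term shifts the fitted DMSO level towards that library, the lower of the 2 at SMC1B, so the larger change is no independent support. TEX15, HORMAD2, STK31 and RNF212 had no H3K27ac peak.

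A list of 48 further germline genes was examined the same way. H3K4me3 peaks lay at 24 of them, and of 31 tested peaks 9 rose and 1 fell at 500 nM against DMSO, with a median log2 fold change of 0.11 (all peaks -0.0063). The share called was 32.3%, against 39.4% of all tested peaks, and 29.0% rose, against 20.7%. NANOS3 and MAJIN were picked from the 9 rises and not by a rule set beforehand. Their peaks were faint in DMSO, and all tested peaks had a median log2 fold change of 0.44 and 0.20 in the 2 faintest quintiles. The part of that trend in these rises was not tested. NANOS3, an RNA-binding protein that protects germ cells, rose near its start from 2.53 and 2.85 CPM in DMSO to 8.67 and 11.2 CPM at 500 nM (log2 fold change 1.88 ± 0.21, SE, n = 2). MAJIN, which tethers meiotic telomeres to the nuclear envelope, rose from 2.37 and 1.67 to 4.68 and 3.98 CPM (log2 fold change 1.08 ± 0.27, SE, n = 2). The fall was at a peak 494 bp beyond the far end of CTCFL, the germ cell paralog of CTCF, and 29226 bp from its start, where the level went from 36.7 and 31.1 CPM in DMSO to 19.8 and 22.8 CPM at 500 nM (log2 fold change -0.69 ± 0.085, SE, n = 2). None of its 47 tested H3K27ac peaks was called by edgeR, and 5 had an unadjusted p under 0.05.

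The 25 listed genes that silence germline genes all carried H3K4me3, as did 68.5% of autosomal protein-coding genes. Of their 38 tested H3K4me3 peaks 3 rose and 8 fell at 500 nM against DMSO, with a median log2 fold change of -0.053. The share called was 28.9%, against 39.4% of all tested peaks, so these genes were not called more often than others. The share that rose was 7.89%, against 20.7% of all tested peaks, and the 8 falls of 38 stand against 18.7% of all tested peaks that fell. The falls comprised 4 peaks inside EHMT1, an H3K9 methyltransferase, with log2 fold changes of -1.31 to -0.78, as well as the start of PCGF6, the Polycomb subunit of the silencing complex (-0.15 ± 0.049, SE, n = 2), 2 peaks at HDAC1 and the start of KDM5C. The rises were at 2 peaks of the DNA methyltransferase gene DNMT3A (0.42 and 0.65) and 1 of DNMT3B (0.18). Of 124 tested H3K27ac peaks of these genes 1 rose, inside DNMT3B (0.63 ± 0.17, SE, n = 2).

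The reads in peaks numbered 9686420 to 12327122 per H3K4me3 library and 4360660 to 5410292 per H3K27ac library. All 6 B-cell markers examined (MS4A1, CD79A, CD79B, CD22, PAX5 and BCL6) had H3K4me3 at a gene end, whereas the myeloid markers CSF1R, LYZ and MPO had no peak of either mark. Peaks were also present at T-cell markers (CD3D, CD3E, CD3G and CD8A). Of these 4 genes, 3 had H3K4me3 at a gene end and 4 had an H3K27ac peak within 2 kb. Of the 10 H3K4me3 peaks of the B-cell list 6 fell and 0 rose at 500 nM against DMSO, where 18.7% of all tested peaks and 34.1% of the most abundant quintile fell. Its summed level was 1577 to 1624 CPM in DMSO, 1599 to 1627 CPM at 150 nM, and 1426 to 1454 CPM at 500 nM. CD14, the 1 myeloid marker with a peak, rose from 9.73 to 11.8 CPM in DMSO to 16.5 to 17.8 CPM at 500 nM, and the 4 peaks of the T-cell list summed to 60.4 to 63.7 CPM in DMSO and 63.6 to 64.9 CPM at 500 nM. The part of these shifts in the members' changes was not tested.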

How the data were processed

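The 12 libraries of H3K4me3 and H3K27ac of a series of 30 were analysed, grouped by their titles. The deposited tables give raw read counts per consensus peak for 6 libraries per mark, made with featureCounts 2.0.1, without strand and with at least 0.2 of a read in the peak, per the file headers. Whether a count is a read or a fragment is open, because the headers show the paired option while the labels' protocols describe 50 bp single-end sequencing. The submitters' processing notes list Trim Galore 0.6.7, BWA 0.7.17-r1188, Picard 2.27.4, MACS2 2.2.7.1, deepTools 3.5.1 and edgeR 3.42.4 and the build GRCh38. Starts were shifted by 1 to count from 1.

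Genes, starts and promoter sequences came from RefSeq tables of GRCh38.p14. The promoter table held no entry for PIWIL2, PIWIL4, HORMAD1, MEIOB and TEX15, for which either gene end stood in for the start. The test was edgeR 4.0.16 (R 4.3.3), with all 6 libraries of a mark in a fit by treatment, after filterByExpr and TMM scaling, with glmQLFTest and Benjamini-Hochberg adjustment at 0.05 over all tested peaks. CPM are relative to reads in tested peaks, so a change of all peaks alike is not measured. Standard errors were derived from the F statistic. On simulated counts with known changes of 1 on the log2 scale, the step made 7 false calls among 166 for H3K4me3 (20074 peaks) and 5 among 83 for H3K27ac (51888 peaks), at 500 nM against DMSO.

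The members, lists and alternatives were chosen with earlier results of these data known. Peaks named in the text were those called in any comparison and the 8 most abundant member peaks per mark, with others given for each member's role. 1 gene of the marker lists is not reported here. Alternatives were other scalings (median of ratios, total count, loess on abundance by limma 3.58.1), other filters, DESeq2 1.42.0, a block for the replicate number, fits of a contrast's 4 libraries alone, a batch term, other rules for assigning peaks, and leaving out each library. Counting error alone sets a lower bound on the spread, since reads carry no molecular identifiers.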

Additional observations from a re-analysis of the deposited data

How the results depend on the processing

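The number of member H3K4me3 peaks called at 500 nM against DMSO, 11 by the test reported, was 7 with a mean count of at least 50, 6 with DESeq2, 5 with peaks within 1 kb of the gene start alone and 2 with peaks away from any end of another gene (HORMAD2 and TEX15). At 500 nM against 150 nM it was 12, and 6, 5 and 3 under the last 3 of these. HORMAD2 and TEX15 are the peaks that entered the test only through their 500 nM libraries, so their calls under the stricter assignment are no independent support. Leaving out each library gave 8 to 11 against DMSO and 8 to 12 against 150 nM, and at 150 nM against DMSO the number was 0 under all alternatives run. Fewer peaks can be called where fewer are tested or assigned, and for DESeq2, which called 3479 of all H3K4me3 peaks against 8034 by edgeR, the cause was not tested. Scaling by the total count in peaks split all calls into 4767 higher and 2791 lower, against 4215 and 3819, and the 11 member calls into 9 and 2. With loess scaling STK31, the SYCE2 start, SMC1B and the DDX17 peak of DMC1 lost their calls, and with DESeq2 TDRKH did as well.

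The titles number the libraries but give no shared culture or day, and deviations of same-numbered H3K4me3 libraries correlated at 0.011 to 0.060 and those of H3K27ac at 0.0035 to 0.13. With the replicate block the H3K4me3 calls were 11, 12 and 0 and the H3K27ac calls 1, 0 and 0. For H3K27ac at 500 nM against DMSO, 0 by the test reported, the number was 1 with the replicate block, 1 with the 4 libraries of the contrast alone, 1 with the batch term, and 0 to 1 when libraries were left out, in each case SMC1B. At 500 nM against 150 nM it was 0 to 1, the 1 being a peak inside STAG3 without the first 150 nM library. Of the uncalled H3K27ac changes the sign turned for SYCE2 (0.070 without the second DMSO and 0.041 without the second 500 nM library, range over libraries left out -0.15 to 0.070), DMC1 (-0.024 without the first DMSO library, range -0.024 to 0.16) and MEI1 (0.12 and 0.029, as for SYCE2, range -0.13 to 0.12). Over all H3K27ac peaks, the 499 calls at 500 nM against DMSO became 117 to 1900 when a library was left out (1900 and 1828 without the first and second 150 nM library, 229 and 117 without those of DMSO, 201 and 133 without those of 500 nM), 2105 with the 4 libraries alone, 1150 with the replicate block, 1274 with the batch term and 114 with DESeq2. The 687 calls against 150 nM became 295 to 2110. With 2 libraries per group, leaving out a library assumes that the lone one varies like the other groups. The batch term sets apart the second DMSO and second 150 nM libraries and no 500 nM library, so it is unbalanced over treatment.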
